A study of Homo sapiens with 15 samples.

Results

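Progesterone (PROG) and dihydrotestosterone (DHT) were compared directly, at the same dose and time, in ZR-75-1 cells. ZR-75-1 is an established human breast cancer line of luminal type that carries estrogen receptor alpha. The comparison uses 6 of the 15 arrays of the study, namely the 3 whose titles name PROG and the 3 whose titles name DHT. The cells of both groups grew in RPMI-1640 with 10% serum and received 10 nM of the compound for 6 h. The other groups, also 3 arrays each, received 10 nM MPA (medroxyprogesterone acetate, a synthetic progestin) or 10 nM DEX (dexamethasone, a synthetic glucocorticoid) for 6 h, or 0.1% ethanol as vehicle. Their levels are given below beside those of PROG and DHT, and their spread enters the standard errors and p-values. The vehicle arrays are also labelled untreated, and the sources used here name no solvent for the compounds. The line is a single model, the serum was not described as stripped of steroids, and nothing in the labels ties the arrays of a group to separate cultures. The p-values therefore reflect the spread among arrays, and that spread may be technical.

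Progesterone and DHT are both natural steroids, and they differ at both ends of the ring system. Progesterone carries an acetyl side chain on the D ring and a ketone conjugated to a double bond in the A ring. DHT carries a hydroxyl group on the D ring, and its A ring is saturated beside the ketone. Each compound enters the cell and binds a nuclear receptor, which moves to DNA and recruits co-regulators. The receptors for progestins, androgens and glucocorticoids belong to one subfamily and recognise a like DNA element, an inverted repeat of a hexamer. Many genes can therefore respond to more than one class of steroid, and FKBP5 is a well-known example.

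The arrays gave deposited log2 levels of 34878 probe sets, of which 14841 are paired with a single gene symbol and were tested. The median level of an array lay between 3.69 and 3.73, and a mean under 3.70 is called dim below. Across all probe sets arrays of the same group correlated with r from 0.9973 to 0.9978, and a PROG array with a DHT array with r from 0.9968 to 0.9974. All 12 measured luminal epithelial markers of 15 listed were above the array median, among them KRT18, GATA3, FOXA1, EPCAM and TFF1. None of the 12 was called different between PROG and DHT by limma, and 3 had an unadjusted p under 0.05, beside 9.33% of all tested probe sets. Their PROG minus DHT difference was below 0 for 8 and above 0 for 3, and ranged from -0.22 to 0.14. Of the markers of other cell types, 2 of 5 basal or myoepithelial genes, 3 of 5 fibroblast genes and 2 of 6 blood or endothelial genes were above the array median, and KRT5, KRT14, DCN, VWF and KDR were dim in both groups. Levels are log2 values throughout, differences are PROG minus DHT on the log2 scale with the standard error of the limma fit (n = 3 arrays a group), and intervals are 95% intervals of that fit. The word called marks a limma adjusted p below 0.05.

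Progesterone and DHT left most measured genes at like levels, and where they differed progesterone more often gave the higher level. ZBTB7C, EMP1 and ACOT6 had the largest differences toward progesterone, of 2.51-fold to 3.31-fold, and C1orf116 had the largest toward DHT, of 3.70-fold. In all, 202 probe sets, 1.36% of those tested, were called higher with PROG and 52, or 0.35%, were called lower, together 254 or 1.71%. At least 1.5-fold apart were 43 probe sets higher with PROG (0.29%) and 7 lower (0.0472%). The median size of the difference was 0.38 for those higher with PROG and 0.34 for those lower, so the typical called difference was small.

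For 14574 probe sets, or 98.2%, the 95% interval of the difference lay inside 1.5-fold in either direction, which is 0.585 on the log2 scale. With dim probe sets left out the number was 9285, so many of the 14574 were dim, where differences can be compressed. For a further 179 uncalled probe sets the interval reached beyond 1.5-fold, so a difference of that size could not be bounded with 3 arrays a group. All 254 called probe sets had groups of arrays that did not overlap. Over all tested probe sets the 3 PROG arrays lay above the 3 DHT arrays in 1086 cases (7.32%) and below them in 815 (5.49%). Protein-coding genes accounted for 243 of the 254 called probe sets, a larger share than the 12226 of all 14841 tested. Long non-coding RNAs accounted for 5, beside 1365 tested, and microRNA genes for 3, beside 732 tested. The other 3 called probe sets were of further kinds. In 6 called probe sets the higher group mean was still under the array median, and no matching count over all tested probe sets is given here. At an unadjusted p under 0.05 there were 1384 probe sets, or 9.33%. The count higher with PROG moved by more than 1.5 times without PROG 2 (131) and without DHT 1 (130). The count lower with PROG did so without PROG 1 (29), PROG 3 (33) or DHT 2 (31).

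**Figure D1:**
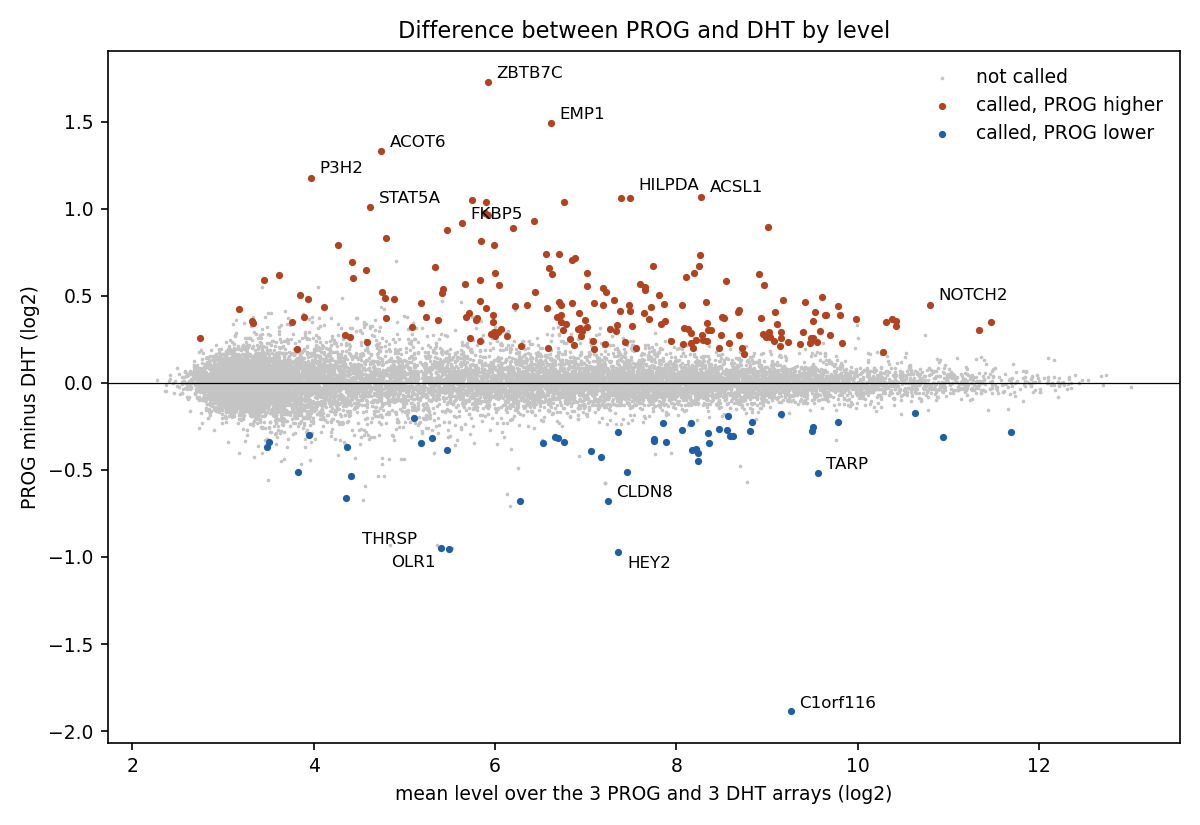
Difference between PROG and DHT (log2, vertical axis) against the mean level over the 6 arrays (log2, horizontal axis), 1 point per named probe set, with called probe sets coloured by direction. The 202 points called higher with PROG reach 1.73 at ZBTB7C, and the 52 called lower reach -1.89 at C1orf116, apart from all other points.

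The genes with the largest differences toward progesterone code for a transcription factor, membrane proteins and enzymes of lipid handling. ZBTB7C, a BTB-domain zinc finger protein, read 6.64, 7.10 and 6.62 on the PROG arrays and 4.98, 5.08 and 5.12 on the DHT arrays. The groups lay well apart, and the difference of 1.73 ± 0.12 corresponds to 3.31-fold (interval 2.77 to 3.96, adjusted p = 1.84e-06). EMP1, an epithelial membrane protein of the PMP22 family, read 7.31, 7.28 and 7.49 with PROG against 5.73, 5.84 and 6.04 with DHT, a difference of 1.49 ± 0.089 (adjusted p = 4.05e-07). The vehicle means of 4.73 for ZBTB7C and 5.51 for EMP1 were close to the DHT means of 5.06 and 5.87, and DHT was not called against vehicle for either gene (adjusted p = 0.33 and 0.0811).

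Several of these genes act on fatty acids. ACSL1, which activates long-chain fatty acids by joining them to coenzyme A, read 8.84, 8.86 and 8.72 with PROG and 7.67, 7.81 and 7.74 with DHT (1.07 ± 0.05, adjusted p = 3.84e-08). HILPDA, a lipid droplet protein that restrains lipolysis, read 8.05, 8.07 and 7.94 with PROG and 6.90, 6.99 and 6.98 with DHT (1.06 ± 0.058, adjusted p = 1.94e-07). ACOT6, an acyl-CoA thioesterase, was dimmer and read 5.51, 5.26 and 5.47 against 4.18, 3.97 and 4.10 (1.33 ± 0.12, adjusted p = 2.71e-05). For all of these DHT lay within 0.11 of the vehicle mean, at 7.74 against 7.63, 6.96 against 7.02 and 4.08 against 4.01.

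Most genes of the fatty acid list differed far less than these. Of its 26 measured genes 2 were called higher with PROG (ACSL1 and ACOT6) and 2 lower, beside 1.36% and 0.35% of all tested probe sets, and its median difference was 0.06 beside 0.00. More differences lay toward PROG than toward DHT. The difference was above 0 for 20 of the 26, and 11 had an unadjusted p under 0.05 beside 9.33% of all tested probe sets. The levels summed to between 190.0 and 190.4 on the PROG arrays and between 186.8 and 188.1 on the DHT arrays. These counts and sums include the 2 genes called higher and the 2 called lower, so they do not describe the small differences alone. THRSP, a regulator of lipogenesis, was lower with PROG, at 4.87, 5.07 and 4.87 against 5.91, 5.92 and 5.82 (-0.95 ± 0.19, adjusted p = 0.0172). ACACA, acetyl-CoA carboxylase, was lower by a small amount, at 9.05, 9.10 and 9.04 against 9.20, 9.27 and 9.26 (-0.18 ± 0.036, adjusted p = 0.0181). Neither call held in every run with 1 array left out. That of THRSP ended without PROG 1, PROG 3, DHT 1 or DHT 2 (adjusted p from 0.0696 to 0.0737), and that of ACACA without PROG 1, PROG 3, DHT 2 or DHT 3 (adjusted p from 0.0638 to 0.0884). The fit pools the spread of all 15 arrays, and the THRSP levels spread most with MPA, at 5.44, 6.24 and 6.54. With only the 6 PROG and DHT arrays THRSP kept its call, and ACACA lost it (limma adjusted p = 0.18). FASN, SCD and ACLY, central enzymes of fatty acid synthesis, differed by 0.00, -0.01 and 0.01. The list of sterol synthesis genes had 15 measured members, none called by limma and none with an unadjusted p under 0.05, with differences from -0.12 to 0.14.

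Transcription factors and a differentiation regulator also stood higher with progesterone. TFCP2L1, a grainyhead-family transcription factor, read 6.37, 6.55 and 6.36 with PROG and 5.43, 5.33 and 5.40 with DHT (1.04 ± 0.064, adjusted p = 5.75e-07). STAT5A, which carries prolactin signals in the mammary gland, read 4.74, 5.21 and 5.45 against 4.0, 4.0 and 4.37 (1.01 ± 0.18, adjusted p = 0.00854). The STAT5A arrays spread more than those of TFCP2L1, and its call ended without DHT 1 (adjusted p = 0.0505). GREB1L, a paralogue of the estrogen-induced GREB1, read 7.31, 7.44 and 7.11 against 6.34, 6.33 and 6.07 (1.04 ± 0.087, adjusted p = 1.02e-05).

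Of the remaining genes with the largest differences toward progesterone, NDRG1, a stress-response gene also known as an androgen target in prostate cells, read 6.42, 6.14 and 6.27 with PROG and 5.16, 5.21 and 5.30 with DHT (1.05 ± 0.17, adjusted p = 0.00406). LRRC31, a leucine-rich repeat protein, differed by 1.06 ± 0.085 (adjusted p = 7.97e-06). SYBU, a microtubule-linked transport protein, differed by 0.97 ± 0.069 (adjusted p = 1.96e-06). P3H2, a prolyl hydroxylase that modifies collagen, read 4.46, 4.73 and 4.50 with PROG, while its DHT mean of 3.39 was dim, which limits what can be read from its difference of 1.18 ± 0.14 (adjusted p = 0.000203). In all 12 genes of this set the PROG mean was called above vehicle, and only SYBU was also called for DHT against vehicle (0.32, adjusted p = 0.0486). These comparisons share the vehicle arrays with each other and the PROG or DHT arrays with the direct comparison. Over all genes 419 probe sets (2.82%) were called between PROG and vehicle and 132 (0.889%) between DHT and vehicle.

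Among the genes higher with DHT than with progesterone, 3 patterns against vehicle were seen. Some rose with both compounds and more with DHT, some were called against vehicle with DHT but not with PROG, and some fell with PROG. The second pattern rests on separate calls, and the direct comparison is its test. C1orf116, a gene known for its strong response to androgens, read 10.20, 10.27 and 10.14 with DHT, 8.36, 8.37 and 8.22 with PROG and 6.74, 6.71 and 6.72 with vehicle. It rose with both compounds, by 3.48 with DHT and 1.59 with PROG, and the PROG minus DHT difference was -1.89 ± 0.056 (adjusted p = 1.64e-10), 3.70-fold with an interval of 3.40 to 4.02. CLDN8, a claudin of tight junctions, read 7.63, 7.67 and 7.44 with DHT, 6.91, 6.97 and 6.83 with PROG and 5.60, 5.68 and 5.38 with vehicle. It too rose with both, and it was lower with PROG by -0.68 ± 0.085 (adjusted p = 0.000431).

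OLR1, a scavenger receptor for oxidised lipoprotein, belongs to the second pattern. It read 5.99, 5.92 and 6.02 with DHT, 4.85, 5.12 and 5.09 with PROG and 5.25, 5.33 and 5.22 with vehicle. The difference between the compounds was -0.96 ± 0.078 (adjusted p = 8.60e-06), DHT was above vehicle by 0.71 (adjusted p = 0.000245), and the PROG value of -0.25 against vehicle was not called (adjusted p = 0.152). TARP, a transcript of the T cell receptor gamma locus that is also found in prostate and breast epithelium, read 9.74, 9.79 and 9.93 with DHT, 9.23, 9.39 and 9.29 with PROG and 9.30, 9.36 and 9.30 with vehicle. Its PROG and vehicle arrays overlapped while all DHT arrays lay above both (-0.52 ± 0.056, adjusted p = 0.000108). PALMD, palmdelphin, and CROT, a carnitine acyltransferase of peroxisomes, showed the same order, with differences of -0.51 ± 0.068 (adjusted p = 0.000649) and -0.45 ± 0.059 (adjusted p = 0.000645). DHT exceeded vehicle by 0.49 for PALMD and 0.60 for CROT, and PROG differed from vehicle by -0.02 and 0.15, neither called.

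HEY2, a repressor that responds to Notch signalling, showed the third pattern. It read 7.78, 7.90 and 7.86 with DHT, 7.02, 6.64 and 6.97 with PROG and 7.54, 7.64 and 7.51 with vehicle, so that PROG lay under vehicle and DHT slightly above it. The difference between the compounds was -0.97 ± 0.089 (adjusted p = 2.82e-05). HEY2 fell by 0.69 with PROG against vehicle (adjusted p = 0.000287), and the DHT value of 0.28 was not called (adjusted p = 0.23). TMEM52B, a membrane protein gene next to OLR1 in the RefSeq gene order, differed by -0.66 ± 0.12 (adjusted p = 0.00639), and TPSD1, a tryptase, by -0.53 ± 0.091 (adjusted p = 0.00524). NFYC-AS1, a long non-coding RNA antisense to NFYC, was lower with PROG by -0.51 ± 0.09 (adjusted p = 0.00724), with a dim PROG mean of 3.58. None of these 3 was called against vehicle with either compound, and neither was THRSP, so these genes belong to none of the patterns. SERF2 was the least stable member of this set. It read 6.06, 5.89 and 5.86 with PROG and 6.96, 6.76 and 6.13 with DHT (-0.68 ± 0.16, adjusted p = 0.0492), its call ended when any of PROG 1, 2 or 3 or DHT 1 or 2 was left out (adjusted p up to 0.223), and its other probe set differed by 0.02 (adjusted p = 0.943).

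**Figure D2:**
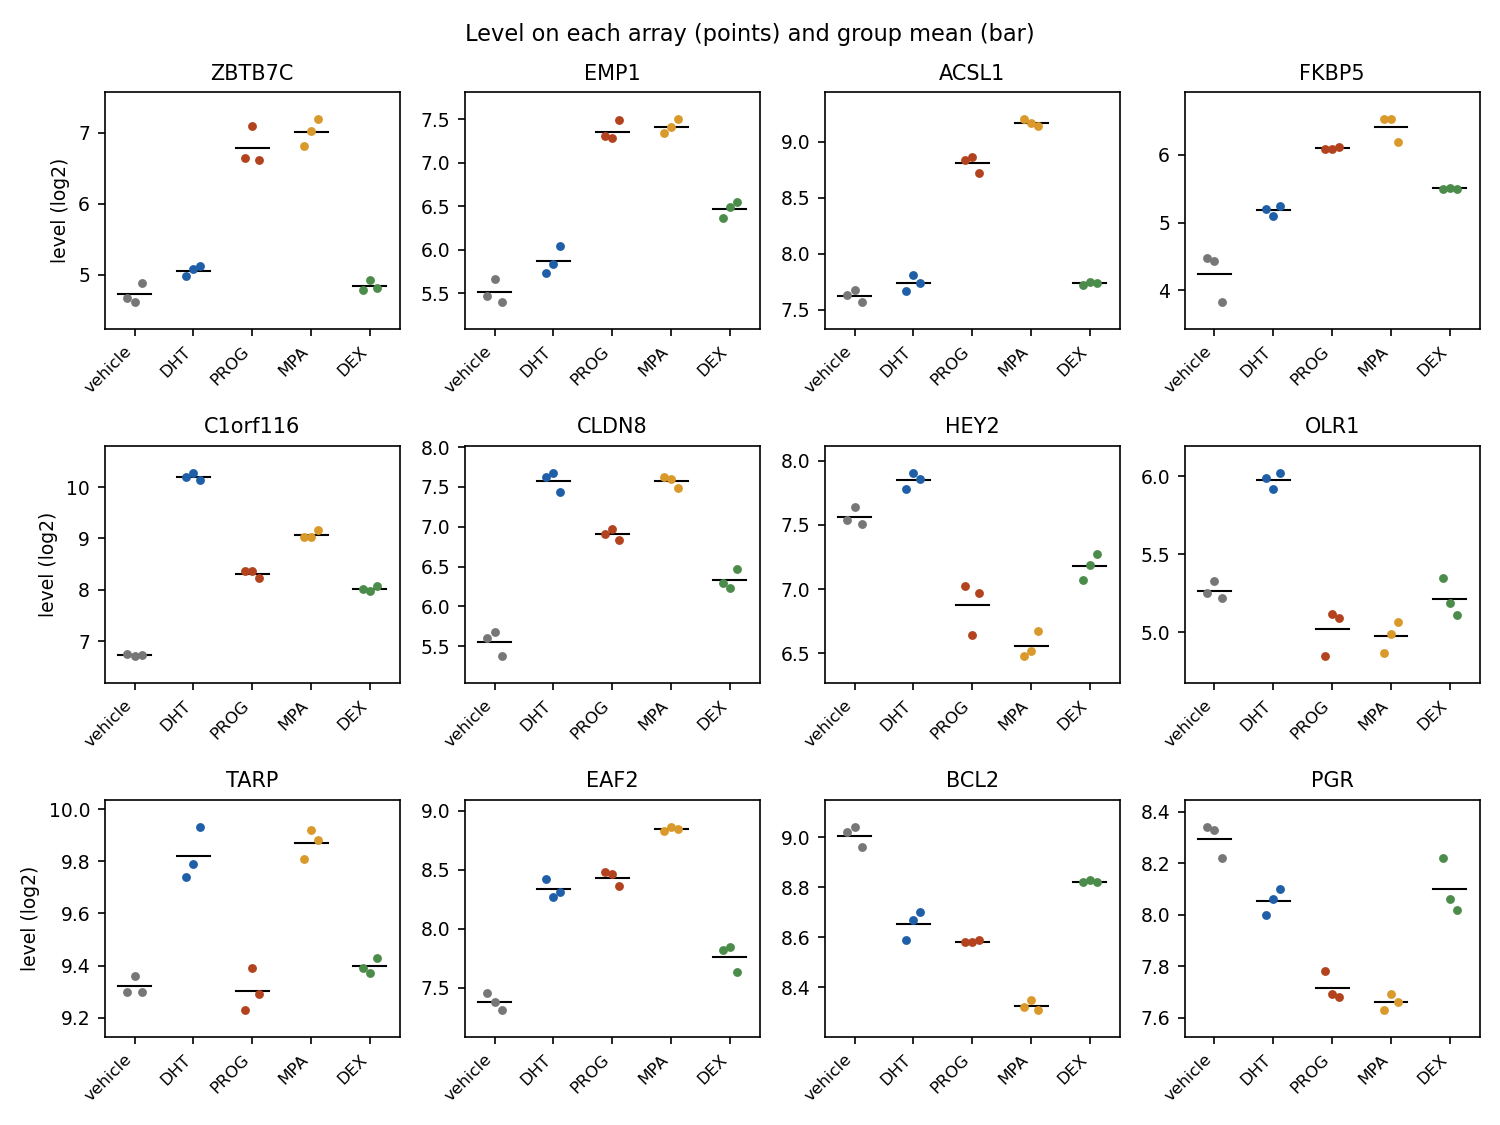
Level (log2) on each of the 15 arrays for 12 genes, 1 panel per gene with its own vertical scale, points for arrays and a bar for the mean of each group of 3. ZBTB7C, EMP1 and ACSL1 have their highest means with PROG and MPA, C1orf116 and CLDN8 rise with DHT above PROG, OLR1 and TARP with DHT lie above PROG and vehicle, and EAF2 and BCL2 have like PROG and DHT levels away from vehicle.

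Promoter sequences are shown for the gene with the largest difference in each direction, since these genes differ most between the compounds. That of STAT5A is also shown, and it was chosen because the search found the hexamer named next in it. The letters searched on both strands were AGAACA, which on the other strand reads TGTTCT and is the hexamer that forms each arm of the shared steroid response element, and also the inverted repeat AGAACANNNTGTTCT. Each sequence below is the 250 bases before the first RefSeq start listed for the gene in GRCh38.p14, written from 5′ to 3′ on the gene's strand, with the hexamer in capitals.
ZBTB7C (chr18:48375628-48375877, minus strand): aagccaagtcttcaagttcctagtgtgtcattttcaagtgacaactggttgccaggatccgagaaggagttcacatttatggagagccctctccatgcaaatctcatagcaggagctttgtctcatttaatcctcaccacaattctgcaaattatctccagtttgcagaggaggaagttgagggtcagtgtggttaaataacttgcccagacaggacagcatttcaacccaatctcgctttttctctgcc
C1orf116 (chr1:207032757-207033006, minus strand): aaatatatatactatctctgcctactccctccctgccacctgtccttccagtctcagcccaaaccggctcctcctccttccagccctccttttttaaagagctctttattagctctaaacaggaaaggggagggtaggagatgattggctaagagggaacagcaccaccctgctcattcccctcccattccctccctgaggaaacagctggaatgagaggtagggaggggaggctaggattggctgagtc
STAT5A (chr17:42287189-42287438, plus strand): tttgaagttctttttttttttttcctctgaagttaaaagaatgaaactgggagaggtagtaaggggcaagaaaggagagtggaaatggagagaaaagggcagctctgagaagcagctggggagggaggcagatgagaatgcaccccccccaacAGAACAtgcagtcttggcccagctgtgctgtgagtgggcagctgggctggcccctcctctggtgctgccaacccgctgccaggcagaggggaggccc
The window searched was 300 bases long and also took in the 50 bases after the start. Neither ZBTB7C nor C1orf116 holds the hexamer there, nor do EMP1 and HEY2, the next largest in each direction, while STAT5A holds 1, starting 97 bases before the start, and FKBP5 holds 1 that begins at the start, beyond the bases printed here. Of the promoters matched to called genes, 13 of 160 higher with PROG (8.1%) and 0 of 38 lower with PROG held the hexamer, beside 10.5% of 10661 promoters of tested genes and 14.8% of all 35116 promoters in the table. With at most 2 mismatches the inverted repeat was found in 1 of the 160 (0.6%) and 0 of the 38, beside 0.8% of promoters of tested genes. A match describes letters in this window only, and elements far from the start lie outside it.

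The lists of known hormone-responsive genes, drawn up with earlier results of these data known, did not all lean the same way. Members of the progestin and glucocorticoid lists differed toward progesterone or were not called, and members of the androgen list differed in both directions. Of 22 measured progestin-induced genes (34 listed) 11 were called higher with PROG and 0 lower, with a median difference of 0.27. Of 24 measured glucocorticoid-induced genes (35 listed) 12 were called higher and 0 lower, with a median of 0.29. Those lists share 6 measured genes, so they are not independent of each other. Of 22 measured androgen-induced genes (37 listed) 3 were called higher and 3 lower, with a median of -0.01. These values stand beside a share called higher of 1.36%, a share called lower of 0.35% and a median of 0.00 over all tested probe sets.

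Among the progestin-induced genes, HSD11B2, the enzyme that inactivates cortisol, read 8.58, 8.72 and 8.47 with PROG and 7.87, 7.92 and 7.96 with DHT (0.67 ± 0.065, adjusted p = 4.02e-05). It rose with both compounds from a vehicle mean of 7.27. IRS2, an adaptor of insulin and IGF receptors, read 6.84, 7.00 and 6.93 against 6.12, 6.30 and 6.38 (0.66 ± 0.071, adjusted p = 0.000108). S100P, a calcium-binding protein, and THBS1, a matricellular protein, differed by 0.59 ± 0.057 (adjusted p = 4.40e-05) and 0.56 ± 0.053 (adjusted p = 3.16e-05). EGFR, the receptor for epidermal growth factor, read 7.60, 7.48 and 7.56 against 7.02, 7.08 and 7.11 (0.48 ± 0.049, adjusted p = 7.22e-05). HSD17B2, ELF5, FASN and FOXO1, known progestin targets in other settings, differed by -0.13, -0.01, 0.00 and 0.03 and were not called. ELF5 was dim with both compounds, so little can be read from its value.

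FKBP5, a co-chaperone of steroid receptors and the only measured gene on the androgen list that is also on the progestin and glucocorticoid lists, read 6.09, 6.09 and 6.12 with PROG, 5.20, 5.10 and 5.24 with DHT and 4.48, 4.43 and 3.83 with vehicle. It rose with both compounds and was higher with PROG by 0.92 ± 0.13 (adjusted p = 0.00144). KLF9, a zinc finger transcription factor induced by glucocorticoids, read 6.94, 7.02 and 6.88 with PROG, 6.12, 6.47 and 6.38 with DHT and 5.74, 5.65 and 5.70 with vehicle (0.62 ± 0.092, adjusted p = 0.00157). Other glucocorticoid-induced genes higher with PROG were ERRFI1, a feedback inhibitor of EGFR (0.49 ± 0.053, adjusted p = 0.000108), DDIT4, an inhibitor of mTOR signalling (0.41 ± 0.054, adjusted p = 0.000634), and GLUL, glutamine synthetase (0.35 ± 0.047, adjusted p = 0.000634).

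SGK1, a kinase that acts on sodium channels, differed by 0.42 ± 0.064 (adjusted p = 0.00193), but it read 3.33, 3.42 and 3.41 with PROG and 2.97, 2.94 and 2.98 with DHT, dim in both groups. PER1, a repressor of the circadian clock, read 7.30, 7.56 and 7.38 with PROG and 6.78, 7.04 and 7.08 with DHT, above a vehicle mean of 5.91 (0.45 ± 0.10, adjusted p = 0.0477). Its call ended without PROG 1, PROG 2, PROG 3, DHT 1 or DHT 2 (adjusted p from 0.0605 to 0.231). BCL6, a BTB zinc finger repressor, read 8.69, 8.78 and 8.64 against 8.43, 8.58 and 8.45 and was not called (0.22 ± 0.053, adjusted p = 0.0634). Without DHT 2 it was called (adjusted p = 0.0355).

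Among the androgen-induced genes, those lower with PROG were C1orf116, CLDN8 and IQGAP2, a scaffold protein (-0.39 ± 0.061, adjusted p = 0.00254), and those higher were NDRG1, FKBP5 and HOMER2, a postsynaptic scaffold protein (0.44 ± 0.078, adjusted p = 0.00742). The other 16 were not called. EAF2, an elongation factor partner that is raised by androgens in prostate, read 8.48, 8.46 and 8.36 with PROG and 8.42, 8.27 and 8.31 with DHT, all above the vehicle arrays at 7.45, 7.38 and 7.31. The difference between the compounds was 0.10 with an interval from -0.03 to 0.23, while both were called above vehicle, by 1.05 and 0.95. KLK3, which codes for prostate-specific antigen, was dim in both groups, with means of 3.55 and 3.55. Of 21 measured apocrine and kallikrein secreted proteins none was called by limma and 3 had an unadjusted p under 0.05, beside 9.33% of all tested probe sets. PIP, a secreted apocrine protein, differed by 0.00 with an interval from -0.14 to 0.14. Without DHT 2 KLK2, a dim member of that list, was called lower with PROG (adjusted p = 0.0165).

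**Figure D3:**
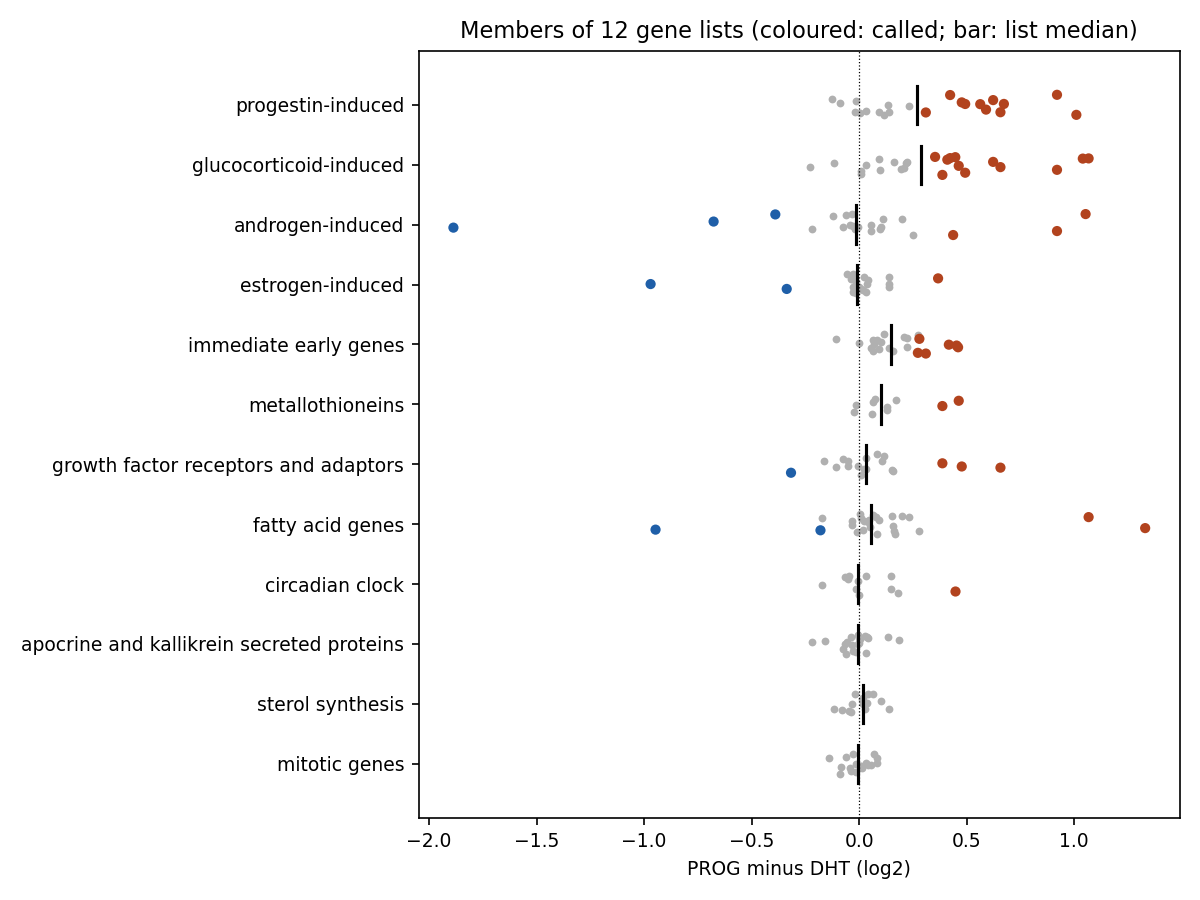
Difference between PROG and DHT (log2, horizontal axis) of each measured member of 12 gene lists, with called members coloured (red higher, blue lower with PROG), uncalled members grey and a bar at the list median. The progestin-induced and glucocorticoid-induced medians lie at 0.27 and 0.29 with no called member below 0, the androgen-induced list has 3 called members on each side, and the mitotic and sterol synthesis members lie close to 0.

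Of the steroid receptor genes only PGR, ESR1 and ESR2 were measured, and ESR2 was dim. The receptors that bind DHT and DEX were not analysed here. PGR, which codes for the progesterone receptor, read 7.78, 7.69 and 7.68 with PROG, 8.0, 8.06 and 8.10 with DHT and 8.34, 8.33 and 8.22 with vehicle. The PROG arrays were the lowest and the vehicle arrays the highest, with no overlap among the groups, and PROG was lower than DHT by -0.34 ± 0.056 (adjusted p = 0.00469). PGR fell by 0.58 against vehicle with PROG (adjusted p = 1.71e-05), and the DHT value of -0.24 was not called (adjusted p = 0.0634). ESR1, which codes for estrogen receptor alpha, read 7.64, 7.53 and 7.41 with PROG, 7.72, 7.80 and 7.73 with DHT and 7.97, 8.16 and 8.02 with vehicle. The difference between the compounds, -0.22 with an interval from -0.36 to -0.08, was not called (adjusted p = 0.148), while both compounds were called below vehicle, by -0.52 and -0.30. Of 10 measured receptors and co-regulators of 18 listed, 0 were called higher and only PGR was called lower (0.35% of all tested probe sets were). Their median difference was -0.09, and 4 had an unadjusted p under 0.05, beside 9.33% of all tested probe sets. All 10 had a difference below 0, from -0.34 to -0.03, and their levels summed to between 85.2 and 85.5 with PROG and between 86.4 and 86.7 with DHT. FOXA1, GATA3 and NRIP1 differed by -0.14, -0.05 and -0.03.

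Estrogen-induced genes mostly kept like levels. Of 22 measured, 1 was called higher with PROG (GREB1) and 2 lower (HEY2 and PGR), with a median of -0.01, beside 1.36% and 0.35% of all tested probe sets. GREB1, a co-activator of estrogen receptor alpha, read 10.16, 10.14 and 10.18 with PROG, 9.78, 9.85 and 9.75 with DHT and 9.37, 9.45 and 9.48 with vehicle (0.37 ± 0.047, adjusted p = 0.000451). TFF1, CTSD, XBP1 and MYB differed by -0.03, 0.02, 0.03 and -0.04. Of 13 measured steroid metabolism genes HSD11B2 was the only one called.

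Immediate early genes and metallothioneins with a call were higher with progesterone. Of 22 measured immediate early genes 6 were called higher and 0 lower, with a median of 0.15, beside 1.36% higher and 0.35% lower of all tested probe sets. The AP-1 subunits JUN and FOSL2 read 7.04, 7.15 and 7.04 against 6.58, 6.63 and 6.64 (0.46 ± 0.074, adjusted p = 0.00361) and 8.10, 8.11 and 8.07 against 7.61, 7.68 and 7.63 (0.45 ± 0.046, adjusted p = 6.51e-05). KLF6, a zinc finger tumour suppressor, read 8.83, 9.0 and 8.87 with PROG and 8.46, 8.5 and 8.49 with DHT, where DHT matched the vehicle mean of 8.48 (0.42 ± 0.053, adjusted p = 0.000464). KLF4 differed by 0.31 ± 0.064 (adjusted p = 0.0196), a call that ended without PROG 1, PROG 2, DHT 1, DHT 2 or DHT 3 (adjusted p up to 0.111). JUNB and the phosphatase gene DUSP4 were the others called, by 0.27 and 0.28, and FOS, EGR1, MYC and ATF3 were not (0.21, 0.09, 0.08 and -0.11). The DUSP4 call ended without PROG 2, DHT 1 or DHT 3 (adjusted p from 0.0569 to 0.08). Without 1 array the count for this list ranged from 4 to 6.

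Metallothioneins are small proteins that bind zinc and copper. Of 10 measured, 2 were called higher with PROG, beside 1.36% of all tested probe sets, and both are well expressed. MT2A read 9.70, 9.65 and 9.61 with PROG, 9.25, 9.16 and 9.16 with DHT and 9.04, 9.10 and 9.17 with vehicle (0.46 ± 0.046, adjusted p = 5.16e-05). MT1X read 10.01, 9.99 and 10.00 with PROG and 9.59, 9.60 and 9.65 with DHT, and here the vehicle mean of 9.86 lay nearer PROG (0.39 ± 0.059, adjusted p = 0.00219). MT1F, also well expressed, differed by 0.07, and 5 of the 10 were dim in both groups. Metallothionein genes are near-identical in sequence, so probe sets of this family may share signal.

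Receptors and adaptors of growth factor signalling gave 3 calls higher with PROG of 19 measured, EGFR, IRS2 and GRB7, and 1 lower, FGFR2. Over all tested probe sets 1.36% were called higher and 0.35% lower. GRB7, an adaptor that binds receptor tyrosine kinases, read 6.14, 6.27 and 6.11 against 5.82, 5.72 and 5.82 (0.39 ± 0.055, adjusted p = 0.00121). FGFR2 read 5.16, 5.13 and 5.15 against 5.31, 5.65 and 5.43 (-0.32 ± 0.072, adjusted p = 0.0403), a call that ended without PROG 1, PROG 2, PROG 3, DHT 2 or DHT 3 (adjusted p up to 0.142). INSR, IGF1R and ERBB3 differed by -0.05, -0.08 and 0.01. EGFR is also a basal marker. The 5 measured basal or myoepithelial markers, EGFR included, summed to 22 to 22.2 (log2 levels) with PROG and 21.4 to 21.5 with DHT. Of the 5, 3 had a difference above 0 and 2 below, with a median of 0.05, and only EGFR was called. KRT5 and KRT14 were dim with both compounds. FN1, on the fibroblast list, was lower with PROG by -0.32 ± 0.063 (adjusted p = 0.0161), a call that ended without PROG 3, DHT 2 or DHT 3 (adjusted p up to 0.086). The 5 measured fibroblast markers summed to between 20.6 and 20.9 with PROG and between 20.7 and 21.2 with DHT, and any part of other cell types in these calls was not tested.

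In the Notch pathway, 23 genes were measured, and the receptor NOTCH2 was called higher and its target HEY2 lower with PROG, beside 1.36% higher and 0.35% lower of all tested probe sets. NOTCH2 read 11.07, 11.00 and 11.00 with PROG, 10.57, 10.59 and 10.57 with DHT and 10.51, 10.41 and 10.54 with vehicle (0.45 ± 0.046, adjusted p = 7.22e-05). The ligands JAG1 and DLL1 differed by 0.49 and 0.32 and were not called (adjusted p = 0.057 and 0.055), and the HEY2 paralogue HEY1 was dim and differed by -0.07. The count called higher was 4 without PROG 1, with JAG1, DLL1 and the glycosyltransferase LFNG added, and 2 without DHT 2 (DLL1 added) or DHT 3 (JAG1 added).

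The apoptosis and G1-S lists held few calls, though a larger share than over all tested probe sets, and the mitotic list held none. BCL2, an inhibitor of apoptosis, read 8.58, 8.58 and 8.59 with PROG and 8.59, 8.67 and 8.70 with DHT, all below vehicle at 9.02, 9.04 and 8.96. The difference of -0.07 had an interval from -0.15 to 0.01, while both compounds were called below vehicle, by -0.42 and -0.35. Of 18 measured apoptosis regulators 1 was called higher and 1 lower, beside 1.36% and 0.35% of all tested probe sets. An unadjusted p under 0.05 was found for 8 of the 18, beside 9.33% of all tested probe sets. BMF, a pro-apoptotic BH3-only protein, was the one higher with PROG (0.36 ± 0.055, adjusted p = 0.00211). BAK1, a pore-forming effector, was lower (-0.23 ± 0.055, adjusted p = 0.0492), a call that ended without PROG 1, PROG 2, PROG 3, DHT 2 or DHT 3 (adjusted p up to 0.21). Of 21 measured G1-S genes the cyclins CCNE2 and CCNE1 were called higher, by 0.27 ± 0.055 (adjusted p = 0.0174) and 0.21 ± 0.045 (adjusted p = 0.0267), where 1.36% of all tested probe sets were. Of the 21, 8 had an unadjusted p under 0.05 and 16 a difference above 0, with a median of 0.07, and the levels summed to between 177.4 and 178.1 with PROG and between 175.8 and 176.5 with DHT. The count for that list fell to 1 without PROG 1, DHT 2 or DHT 3 and to 0 without PROG 2, PROG 3 or DHT 1. Of 18 measured mitotic genes limma called none, with 1 at an unadjusted p under 0.05, and MKI67, CCNB1 and TOP2A differed by 0.04, -0.02 and 0.01.

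Other lists had at most 1 call in each direction, beside 1.36% higher and 0.35% lower of all tested probe sets. Of 12 measured epithelial transport and junction genes CLDN8 was lower and SGK1 higher with PROG. AQP3, a water and glycerol channel, differed by -0.15 with an interval from -0.38 to 0.09. Of 12 measured circadian clock genes PER1 was the only one called. KDM4B, a histone demethylase, read 7.24, 7.20 and 7.34 with PROG and 7.42, 7.38 and 7.19 with DHT, above the vehicle arrays at 6.51, 6.85 and 6.34, with an interval of the difference between the compounds from -0.30 to 0.16. Of 13 measured NF-kB and inflammatory genes limma called none and 4 had an unadjusted p under 0.05, beside 9.33% of all tested probe sets. None of 6 housekeeping genes was called by limma, and 0 had an unadjusted p under 0.05.

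Of 732 microRNA genes with a probe set, 273 were above the array median with PROG or DHT, and 3 were called, which is 0.41% of the 732 and 1.1% of the 273 beside 1.71% of all tested probe sets. They are described here after their values were seen. A mature microRNA pairs with its targets through the seed, bases 2 to 8, which is in capitals below, with the RefSeq sequences of GRCh38.p14 written from 5′ to 3′. The mature forms come from MIR21 (hairpin chr17:59841266-59841337, plus strand), MIR29C (chr1:207801852-207801939, minus strand) and MIR181B1 (chr1:198858873-198858982, minus strand).
hsa-miR-21-5p: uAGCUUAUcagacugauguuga
hsa-miR-29c-3p: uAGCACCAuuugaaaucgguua
hsa-miR-29c-5p: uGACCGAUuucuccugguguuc
hsa-miR-181b-5p: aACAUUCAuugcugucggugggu
hsa-miR-181b-3p: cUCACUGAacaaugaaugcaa
The 5 seeds differ from each other. MIR21, which makes a microRNA abundant in many tumours, read 8.59, 8.70 and 8.60 with PROG, 7.71, 8.04 and 7.94 with DHT and 7.57, 7.49 and 7.45 with vehicle (0.73 ± 0.084, adjusted p = 0.000186). MIR29C, of a family known to target collagen transcripts, read 8.69, 8.40 and 8.46 against 7.80, 8.13 and 7.72 (0.63 ± 0.10, adjusted p = 0.00417). Both lay higher on every PROG array than on every DHT array, and no called probe set had groups that overlapped. With only the 6 PROG and DHT arrays the MIR29C call ended (limma adjusted p = 0.0816). MIR181B1 was lower with PROG, at 8.26, 8.04 and 8.26 against 8.51, 8.60 and 8.49 (-0.35 ± 0.081, adjusted p = 0.0459), and that call ended when any 1 of the 6 arrays was left out (adjusted p from 0.07 to 0.22). MIR21 lies inside VMP1 in the RefSeq gene table. The VMP1 probe set read 12.18, 12.23 and 12.27 with PROG and 12.03, 12.09 and 12.16 with DHT, near the top of the array's range, and was not called (0.13 ± 0.05, adjusted p = 0.379). RNA was amplified and converted to cDNA before labelling, so these probe sets may read the primary transcript, and levels of the mature microRNAs were not measured here.

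The levels with MPA, DEX and vehicle, whose arrays did not enter the contrast, place the called probe sets. Of the 202 called higher with PROG, the MPA mean lay above both compounds in 147, between them in 54 and below both in 1, and it was nearer PROG than DHT in 190, or 94.1%. Over the 7473 tested probe sets with a higher PROG mean, MPA was nearer PROG in 55.3%. DEX was nearer PROG in 46 of the 202 (22.8%, beside 55.1% over all) and lay between the compounds in 136. Vehicle lay below both in 124, between them in 77 and above both in 1. NDRG1 shows this order, with means of 6.48 with MPA, 6.28 with PROG, 5.34 with DEX, 5.22 with DHT and 5.0 with vehicle. For ACSL1 the DEX level lay at that of DHT, with means of 9.17 with MPA, 8.81 with PROG, 7.74 with DHT, 7.74 with DEX and 7.63 with vehicle. TFCP2L1 and IRS2 were among those with DEX between the compounds, at 5.96 and 6.80. PER1 had its highest mean with DEX, at 8.05 against 7.41 with PROG and 6.97 with DHT.

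Of the 52 called lower with PROG, MPA was nearer PROG in 45 (86.5%, beside 57.2% of the 7097 tested probe sets with a lower PROG mean), DEX in 40 (76.9%, beside 45.3%) and vehicle in 37 (71.2%, beside 48.3%). Vehicle lay between the compounds in 39, below both in 11 and above both in 2. MPA was not nearer PROG for every member. TARP had an MPA mean of 9.87, close to DHT at 9.82 and away from PROG at 9.30, and CLDN8 had 7.57 with MPA, 7.58 with DHT and 6.90 with PROG. C1orf116 had 9.07 with MPA, between PROG at 8.32 and DHT at 10.20, and THRSP had 6.07 with MPA, 5.88 with DHT and 4.94 with PROG. The THRSP levels with MPA spread widely, at 5.44, 6.24 and 6.54, so the place of that mean is uncertain. HEY2 and OLR1 lay with PROG, at 6.56 and 4.98 with MPA against 6.88 and 5.02 with PROG. Over both directions the share of called probe sets with vehicle nearer PROG was 18.9%. That value pools 5.4% of the 202 called higher with 71.2% of the 52 called lower. The pooled share was 13.3% without PROG 3, 13.8% without PROG 1 and 30.1% without DHT 3. In those runs the count called lower was 33, 29 and 78. A pooled share also moves with the mix of directions, and how far that accounts for these values was not tested.

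**Figure D4:**
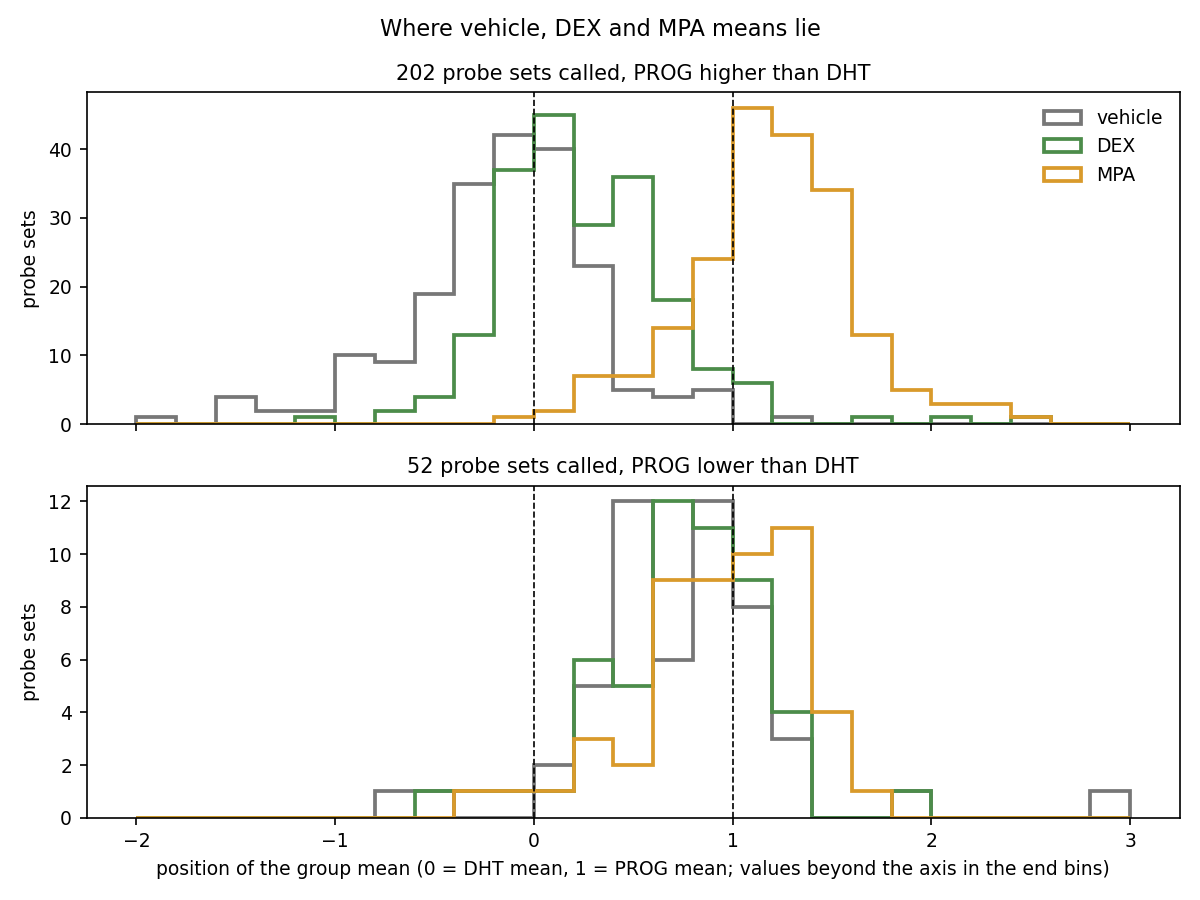
Number of called probe sets (vertical axis) by the position of the vehicle, DEX and MPA means on a scale where the DHT mean is 0 and the PROG mean is 1 (horizontal axis), for the 202 called higher (top) and the 52 called lower with PROG (bottom), with values beyond the axis in the end bins. In the top panel vehicle and DEX gather around the DHT mean, with median positions of -0.13 and 0.19, and MPA beyond the PROG mean, at 1.20. In the bottom panel the medians are 0.77 for vehicle, 0.78 for DEX and 0.99 for MPA.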

How the data were processed

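Total RNA of ZR-75-1 cells was amplified, labelled with biotin and hybridised to Affymetrix arrays, per the labels' protocols. The values used are the deposited log2 levels, 1 column for each array and 34878 probe sets in all. The submitters' processing notes list Partek and RMA. The sources used here give no versions, filters, scan dates or genome build. RMA sets arrays to a like distribution, so a shift common to most genes would be removed, and it can compress differences of dim probe sets.

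The platform annotation gives 14841 probe sets 1 gene symbol, 0 several, and leaves 20037 unnamed here. All 14841 matched the RefSeq gene table by gene ID. They cover 14361 genes, of which 405 have more than 1 probe set. Lists use the probe set with the highest mean.

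Values were used as deposited. limma 3.58.1 in R 4.3.3 fitted 5 group means over all 15 arrays (10 residual degrees of freedom, prior 3.81), and every adjusted p is its 2-sided Benjamini-Hochberg value over the 14841 probe sets of 1 contrast, called under 0.05. One pair of compounds was compared. The script was tested on simulated data before use. Alternatives were the 6 arrays alone, a replicate block, each array left out, a filter on dim probe sets, quantile normalization, centred arrays, a trended prior and all probe sets.

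Genes named are the 12 largest called differences in each direction (protein-coding or long non-coding, higher mean above the array median, groups that do not overlap), up to 4 called members of each list, and 16 further genes. The 24 lists, the rule and the comparison were chosen with earlier results of these data known. Outside that rule, and chosen with their values in view, are the 3 microRNA genes, VMP1, further list members given as examples and the genes under other observations. The STAT5A promoter was also chosen later, because it holds the hexamer searched for. Promoter and microRNA sequences are RefSeq's (GRCh38.p14), with promoters matched for 160 and 38 called genes.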

Additional observations from a re-analysis of the deposited data

Results flagged for a closer look

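Probe sets without a gene symbol here were outside the comparison and also differed between the compounds. When all 34878 probe sets were fitted together in limma, 154 of the 20037 unnamed probe sets were called between PROG and DHT, 129 higher and 25 lower with PROG. Of the 154, 150 were above the array median in at least 1 of the groups and 44 differed by at least 1.5-fold. Probe set 16816962 read 7.09, 6.87 and 6.75 with PROG and 4.23, 4.17 and 4.45 with DHT (2.62 ± 0.11, adjusted p = 1.47e-08), a larger difference than that of any named probe set. Probe set 16711404 differed by 2.04 ± 0.18. Of those lower with PROG, probe set 16967339 read 3.86, 3.84 and 3.87 against 4.86, 4.87 and 4.66 (-0.94 ± 0.069, adjusted p = 3.69e-06), and probe set 17056815 differed by -1.08 ± 0.21. Their genes were not identified here.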

How the results depend on the processing

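No result reversed its direction under any alternative run. With only the 6 PROG and DHT arrays, 121 probe sets were called higher and 25 lower with PROG, 140 of the 254 called probe sets remained, and vehicle was nearer PROG in 12.3% of calls instead of 18.9%. This fit has fewer residual degrees of freedom. With each array left out in turn, the count higher ranged from 130 to 178, the count lower from 29 to 78, the share of calls with vehicle nearer PROG from 13.3% to 30.1%, that with MPA nearer PROG from 91.0% to 96.7% (92.5% with all arrays), and that with DEX nearer PROG from 28.7% to 44.9% (34.3% with all arrays). The highest values of the count lower and of the vehicle and DEX shares came without DHT 3. With all probe sets fitted, named and unnamed, 93 instead of 50 calls reached 1.5-fold, and 34056 instead of 14574 intervals lay inside 1.5-fold, since more were tested. With dim probe sets left out 9285 did, since fewer were tested. With a trended and robust prior, 2 estrogen-induced genes instead of 1 were called higher, and the cause was not tested.

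Same-numbered PROG and DHT arrays correlated in their deviations from the group means by 0.017 to 0.067 and differently numbered ones by -0.088 to 0.046. Whether the numbers pair the arrays cannot be settled from these values, since a shared culture or run need not leave a larger correlation. With the replicate block 190 probe sets were called higher and 44 lower, 225 of them among the 254. Of 51 called genes named under the rule or with the microRNA genes, 36 kept their call under all alternatives run, 12 lost it without 1 of the arrays and 12 in the fit of 6 arrays. Of 9 named genes not called, only BCL6 gained a call. Quantile normalization kept 238 of the 254 calls, and each rescaling shifted the median difference by at most 0.003. With 3 arrays a group, dim levels limit what can be read for P3H2, NFYC-AS1, SGK1, ELF5, KLK2 and KLK3.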

Other observations

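Genes outside the rule, chosen after their values were seen, show further differences between progesterone and DHT. ACKR3, an atypical chemokine receptor for CXCL12, read 5.83, 6.04 and 5.88 with PROG and 4.89, 5.01 and 5.21 with DHT (0.88 ± 0.096, limma adjusted p = 0.000108), with a vehicle mean of 5.35 between them. F2R, the thrombin receptor, read 6.72, 6.67 and 6.53 against 5.58, 5.95 and 5.72 (0.89 ± 0.083, adjusted p = 3.16e-05), with a vehicle mean of 5.43. SPRY4, a sprouty protein that restrains growth factor signalling, was higher with PROG by 0.70 ± 0.091 (adjusted p = 0.000519) and LRIG1, which promotes turnover of EGFR, by 0.34 ± 0.049 (adjusted p = 0.00149). The kinase gene JAK2 differed by 0.57 ± 0.097 (adjusted p = 0.00543) and the ligand gene EGF by 0.33 ± 0.05 (adjusted p = 0.00193).

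Transcription factors stood on both sides. LEF1, a mediator of Wnt signalling, read 6.72, 6.65 and 6.74 with PROG and 6.19, 6.25 and 6.10 with DHT (0.52 ± 0.074, adjusted p = 0.00118). SOX4 differed by 0.48 ± 0.054 (adjusted p = 0.000186) and MXD1, a partner of MAX, by 0.62 ± 0.043 (adjusted p = 1.84e-06). Lower with PROG were GLI3, a Hedgehog effector, at 7.01, 7.05 and 6.82 against 7.34, 7.41 and 7.41 (-0.43 ± 0.068, adjusted p = 0.00344), AHR, the aryl hydrocarbon receptor (-0.28 ± 0.049, adjusted p = 0.00683), and REL, an NF-kB subunit that was not on the list used above (-0.25 ± 0.043, adjusted p = 0.00524). AHR and REL had vehicle means of 11.68 and 9.53, between those of the compounds.

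Some called genes are neighbours in the RefSeq gene order. OLR1 and TMEM52B on chromosome 12 were both lower with PROG (-0.96 and -0.66), and CSRNP1 and TTC21A on chromosome 3 were both higher (0.82 and 0.60). PGR and ARHGAP42 on chromosome 11 went opposite ways (-0.34 and 0.52). The ARHGAP42 call ended without PROG 1, PROG 2, PROG 3, DHT 1 or DHT 2 (adjusted p from 0.0514 to 0.119), and that of TTC21A without PROG 2, PROG 3 or DHT 3 (adjusted p from 0.0511 to 0.0676).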
